A study of Mus musculus with 12 samples.

Results

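The comparison described here was that of kidneys from mice with chronic kidney disease that received iron (CKD+Fe) with kidneys from control mice, over every protein-coding gene with sufficient signal. Whole kidney RNA of 12 mice, 4 in each of 3 groups, was sequenced, and 8 of these mice (4 CKD+Fe and 4 control) made up the comparison. CKD and CKD+Fe mice were C57BL/6 mice fed 0.2% adenine for 8 weeks, from 8 to 16 weeks of age, and control mice ate the same diet without adenine. CKD+Fe mice were injected i.p. every week with iron dextran at 0.5 g/kg, whereas control and CKD mice were given PBS on the same schedule. CKD+Fe and control mice therefore differed in adenine, in iron and in dextran, and these cannot be told apart in this comparison, so the values of the CKD mice are given beside them. The labels give no sex and no batch, and nothing states that mice of a group came from separate litters, so p values measure the spread between these mice. Genes entered if their FPKM (fragments scaled by transcript length and by the mapped reads of the library) was at least 1 in at least 4 of the 12 mice, with failed estimates treated as missing. Of 22053 rows of the table, 13148 genes met this rule.

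Adenine is oxidized to a poorly soluble product that crystallizes in tubules and obstructs them. The kidney responds with a known set of programs: injured tubule cells turn on secreted and surface injury proteins, monocytes enter and become macrophages, fibroblasts lay down collagen, and the proximal tubule loses the transporters and the mitochondrial and peroxisomal fat burning on which it normally depends. Iron dextran is a polysaccharide-coated iron that macrophages take up and pass on through ferritin and ferroportin. The question of this comparison was which of these programs were still present in the kidneys of iron-treated mice.

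All 3 groups had whole-kidney profiles with the markers of the organ, and the deposited values had features that bear on every result below. The FPKM of all rows summed to between 607951 and 707843 in control mice and to between 536139 and 572074 in CKD+Fe mice. Kap, a transcript of the proximal tubule, alone made up 10.6% to 12.7% of this sum in control mice and 0.357% to 1.7% in CKD+Fe mice, and the number of genes at 1 FPKM or more ran from 11470 to 11800 in control mice and from 12910 to 13019 in CKD+Fe mice. The depth in reads is unknown, the relative depth read from the smallest steps of the values ran from 0.684 to 1 over the 12 mice, and total RNA per kidney was not measured. Control mouse 3 and CKD+Fe mouse 1 stood apart from their groups, with 612 and 454 genes at least 2-fold away from the other mice of the group, so list counts without these 2 divergent mice are given where they moved by over 1.5 times. CKD mouse 3, which is outside the CKD+Fe and control groups, had 915 such genes, the most of the 12 mice. It stayed in the fits without the divergent mice. In whole tissue, fewer cells of a type and less RNA per cell cannot be told apart.

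Tests were made with limma on log2(FPKM + 1), with all 12 mice in 1 fit. The threshold was a p value under 0.05 after Benjamini-Hochberg adjustment over the 13148 genes. In CKD+Fe against control mice 7159 genes were called higher (54.4% of genes tested) and 1442 lower (11.0%). Among called genes 2891 were at least 2-fold higher and 497 at least 2-fold lower, and 473 and 104 passed 4-fold. The whole distribution was shifted, and the median over all genes was 0.50 on the log2 scale. After median-of-ratios rescaling, which brought this median to 0.0173, 3636 genes were higher (27.7%) and 3618 lower (27.5%), so 50.1% rather than 83.2% of called genes were higher. Calls made alike with deposited, rescaled and quantile-normalized values numbered 2050 higher (15.6%) and 1295 lower (9.85%). Every CKD+Fe mouse was above every control mouse for 6621 genes (50.4%) and below for 1295 genes (9.85%). For 1 gene, such a separation has an exact two-sided permutation p of 0.0286, the smallest that 4 mice against 4 allow. In CKD against control mice, which used the same control mice, 7181 genes were higher (54.6%) and 1748 lower (13.3%). Log2 fold changes below are of log2(FPKM + 1) with deposited values unless rescaled values are named, and a member of a gene list is called higher or lower by the adjusted p.

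Promoters of list members were searched for short motifs of 3 transcription factors known from kidney and immune cells, and 4 promoters with a match are shown so that the sequence can be read beside the values. The motifs searched on both strands were CAAAGTCCA for HNF4, the hepatocyte nuclear factor 4 of proximal tubule and liver, GAGGAAGT for PU.1, the myeloid factor, and GGGANTTTC for NF-kB, the inflammatory factor. The windows ran from 250 bases before to 50 bases after the RefSeq start of 10105 of the 13148 genes. The HNF4 match lay in 3 of 83 promoters of the proximal tubule lists (3.61%), in 1 of 22 macrophage promoters (4.55%), in 0 of 41 fatty acid oxidation promoters and in 0.435% of all promoters. The NF-kB match lay in 4 of 23 cytokine promoters (17.4%) and in 1.03% of all, and in 0 of 83 proximal tubule promoters. The PU.1 match lay in 2 of 22 macrophage promoters (9.09%), 0 of 23 cytokine promoters, 6 of 83 proximal tubule promoters (7.23%) and 3.14% of all, so neither the HNF4 nor the PU.1 letters kept to 1 kind of list. These are letter matches in the reference and not measured binding. Printed are the 150 bases upstream of the start, 5′ to 3′ on the gene's strand, from RefSeq on build GRCm38.p6, with the match in capitals. Slc3a1, the heavy subunit of the cystine transporter (chr17:85028197-85028346, plus strand), and Agxt2, a mitochondrial aminotransferase (chr15:10358383-10358532, plus strand), hold an HNF4 match that starts 39 and 21 bases before the start. Cxcl1, a neutrophil chemokine (chr5:90891095-90891244, plus strand), holds an NF-kB match 71 bases before the start, and Spp1, which encodes osteopontin (chr5:104434961-104435110, plus strand), a PU.1 match 113 bases before the start. The 4 genes were picked among list members called in the direction of their list, so their levels had to go with it. Slc3a1 fell by 1.11 (standard error 0.18, adjusted p = 0.000143) and Agxt2 fell by 0.85 (standard error 0.27, adjusted p = 0.0132) on the log2 scale. Cxcl1 rose from 0.278 to 0.827 FPKM in control mice to 25.2 to 47.8 FPKM in CKD+Fe mice (log2 fold change 4.58, standard error 0.37, adjusted p = 7.16e-07). The values of Spp1 stand with the injury genes.
Slc3a1: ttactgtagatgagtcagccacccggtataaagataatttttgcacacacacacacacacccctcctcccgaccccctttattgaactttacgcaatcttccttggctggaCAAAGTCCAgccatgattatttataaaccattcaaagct
Agxt2: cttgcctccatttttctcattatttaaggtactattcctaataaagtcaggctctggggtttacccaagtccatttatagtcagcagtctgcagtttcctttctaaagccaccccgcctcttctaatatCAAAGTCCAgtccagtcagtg
Cxcl1: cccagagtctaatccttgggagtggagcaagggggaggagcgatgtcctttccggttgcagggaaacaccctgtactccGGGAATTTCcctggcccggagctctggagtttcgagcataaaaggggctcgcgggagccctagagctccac
Spp1: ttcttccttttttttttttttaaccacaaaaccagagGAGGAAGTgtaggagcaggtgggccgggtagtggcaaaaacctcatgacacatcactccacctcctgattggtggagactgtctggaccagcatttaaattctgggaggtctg

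Gene lists, written from general knowledge but with earlier results of these data known, were laid over the comparison as a description. Lists of injury, macrophages, cytokines, complement and matrix lay above the shift of all genes, and lists of proximal tubule and mitochondrial genes lay below 0, in CKD+Fe as in CKD mice.

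**Figure D1:**
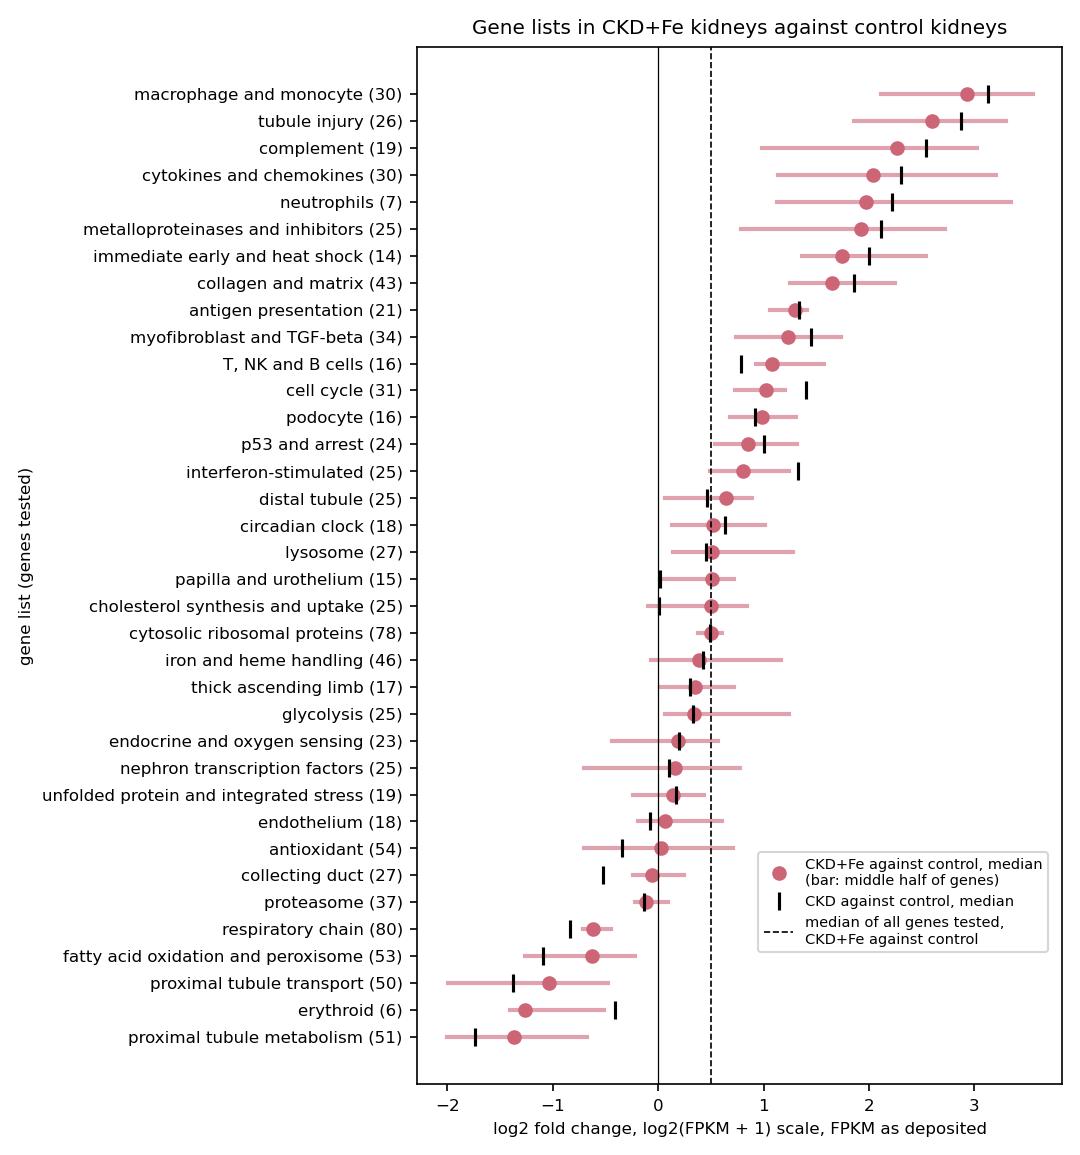
Each dot is the median log2 fold change, on the log2(FPKM + 1) scale with FPKM as deposited, of the tested genes of a list in CKD+Fe against control mice (4 and 4 mice), with a bar from the lower to the upper quartile of genes. Black ticks are the medians of CKD against control mice, and the dashed line is the median of all genes, 0.50. Macrophage genes have the highest median, 2.93, and proximal tubule metabolism genes the lowest, -1.36.

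Genes of tubule injury were high in every CKD+Fe mouse. Of 26 genes tested, 24 rose and 0 fell with deposited values, and 22 rose after rescaling, where 54.4% and 27.7% of all genes rose, with a median log2 fold change of 2.60 (2.14 after rescaling). Lcn2, which encodes the secreted iron-siderophore carrier NGAL, measured 3.88, 5.61, 20.9 and 4.54 FPKM in control mice 1 to 4 and 693, 915, 482 and 761 FPKM in CKD+Fe mice 1 to 4. The groups were far apart, and control mouse 3 was the highest of its group. The log2 difference came to 6.46 (standard error 0.42, adjusted p = 1.76e-07), the largest rise of any gene called under the 3 scalings with no overlap. Havcr1, the phosphatidylserine receptor KIM-1 of injured proximal tubule, measured 2.75, 1.42, 1.47 and 1.22 FPKM in control mice and 98.3, 173, 61.4 and 110 FPKM in CKD+Fe mice. No CKD+Fe mouse came near the control range, a log2 fold change of 5.30 (standard error 0.33, adjusted p = 1.45e-07). Spp1, a secreted matrix phosphoprotein, ran from 426 to 687 FPKM in control mice and from 7124 to 12740 FPKM in CKD+Fe mice (log2 fold change 4.24, standard error 0.26, adjusted p = 1.35e-07). Vcam1, an adhesion molecule of endothelium and failed-repair tubule cells, ran from 2.76 to 3.50 FPKM and from 71.5 to 107 FPKM (log2 fold change 4.38, adjusted p = 3.75e-08). In CKD mice the log2 fold changes against the same control mice were 7.05 for Lcn2, 6.05 for Havcr1, 4.84 for Spp1 and 4.60 for Vcam1. Krt20 (log2 fold change 3.55), an intermediate filament of injured tubule and urothelium, and Sox9 (2.23), a transcription factor of repairing tubule cells, rose as well, whereas Cryab (-0.05), a small heat shock protein, was not called.

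**Figure D2:**
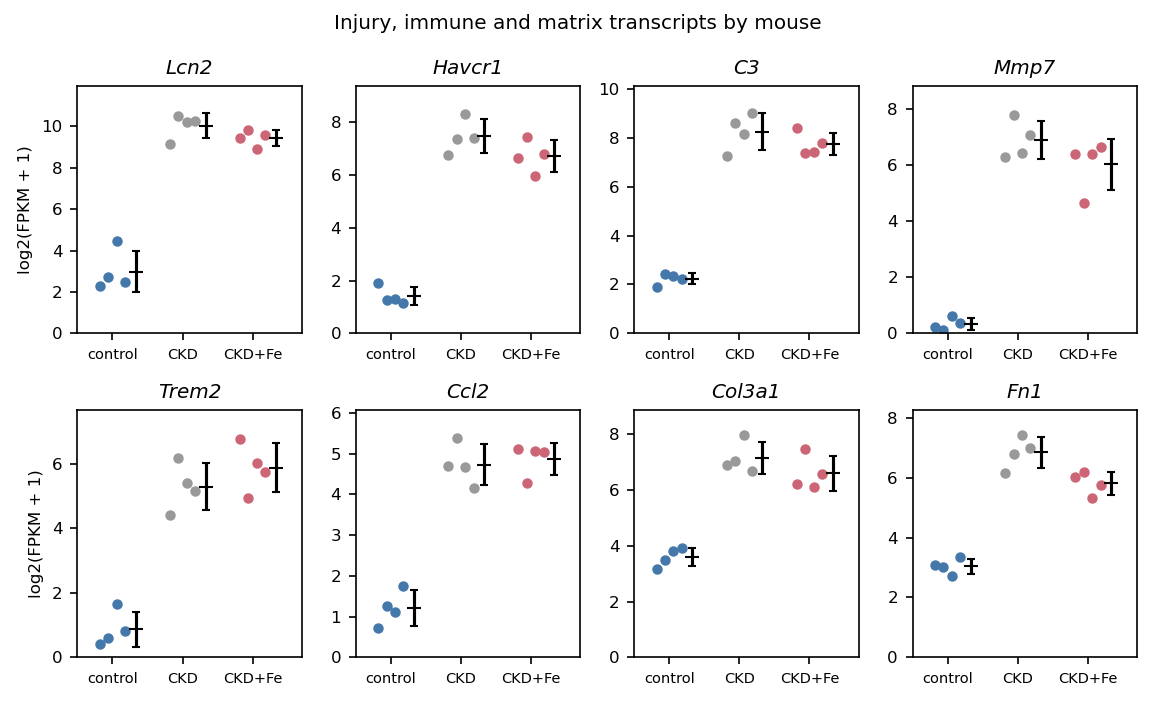
Points are log2(FPKM + 1) in each mouse (blue, control; gray, CKD; red, CKD+Fe; 4 mice each) with the mean and SD in black, for 8 genes of injury, immune cells and matrix. In each panel the CKD+Fe mice lie above the control mice with no overlap, and they share a range with the CKD mice. For Fn1 most CKD+Fe mice lie lower than the CKD mice, with a slight overlap.

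Macrophage and monocyte genes formed the list with the highest median. All 30 tested rose with deposited values and 28 after rescaling, with a median of 2.93 (2.52 after rescaling). The defining markers moved together, with log2 fold changes of 2.90 for Adgre1 (F4/80), 3.83 for Cd68, 1.63 for Csf1r, 3.38 for C1qa, 3.40 for C1qb and 3.07 for Itgam (CD11b). Summed over the 33 matched genes, the list ran from 198 to 387 FPKM in control mice and from 2365 to 5098 FPKM in CKD+Fe mice. Trem2, a lipid receptor of macrophages in damaged tissue, measured 0.347, 0.530, 2.14 and 0.749 FPKM in control mice and 108, 29.6, 64.4 and 52.9 FPKM in CKD+Fe mice. CKD+Fe mouse 1 was the highest, mouse 2 the lowest, and all were above control. This was a log2 fold change of 5.0 (standard error 0.40, adjusted p = 7.16e-07), the largest of the list. Gpnmb (4.74), a glycoprotein of lipid-laden macrophages, Lyz2 (4.89), lysozyme, and Ms4a7 (4.01), a marker of tissue macrophages, were among the larger rises. Cd163, the hemoglobin-haptoglobin receptor, was at 0.0402 to 0.139 FPKM in control mice and at 1.09 to 3.79 FPKM in CKD+Fe mice. It rose by 1.38 (adjusted p = 0.00864), which quantile normalization reduced to 0.71 (adjusted p = 0.143). Apoe, a lipid carrier made by macrophages and counted here in the cholesterol list, ran from 111 to 233 FPKM and from 1249 to 4958 FPKM (log2 fold change 4.25, adjusted p = 2.20e-06).

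Cytokine and chemokine genes were higher in most cases. Of 30 tested, 27 rose and 1 fell (23 and 2 after rescaling), with a median of 2.04. Ccl2, the ligand that draws CCR2 monocytes, measured 0.640, 1.41, 1.15 and 2.39 FPKM in control mice and 33.4, 18.3, 32.6 and 31.8 FPKM in CKD+Fe mice. CKD+Fe mouse 2 was low among its group and still above every control mouse (log2 fold change 3.66, standard error 0.28, adjusted p = 4.89e-07). Ccl8, another monocyte chemokine, ran from 0.840 to 3.49 FPKM and from 62.2 to 74.8 FPKM (log2 fold change 4.63, adjusted p = 6.56e-07). Il1b, which encodes interleukin-1β, was near-constant in control mice, 1.23 to 1.30 FPKM, and at 12.6 to 17.4 FPKM in CKD+Fe mice (log2 fold change 2.79, adjusted p = 2.59e-06). Tnf, tumor necrosis factor, ran from 0 to 0.449 FPKM and from 1.77 to 4.76 FPKM (log2 fold change 1.89, adjusted p = 0.000217), and Csf1, the macrophage growth factor, had a log2 fold change of 2.21 (adjusted p = 2.34e-06). Il6 stayed under the filter, at 0 to 0.0456 FPKM in control mice and 0.549 to 3.47 FPKM in CKD+Fe mice, and was not tested. Ccl28, a mucosal chemokine of epithelium, was the call in the other direction, at 5.87 to 12.8 FPKM in control mice and 1.43 to 3.05 FPKM in CKD+Fe mice (log2 fold change -1.43, adjusted p = 0.00239). The CKD+Fe minus CKD differences were 0.14 (95% interval -0.45 to 0.74) for Ccl2, -0.21 (-0.78 to 0.35) for Il1b and -0.22 (-0.91 to 0.47) for Tnf, all with 0 inside the interval. Over the list 26 of 30 differences were negative, with a median of -0.23, where 6586 of the 13148 genes were negative. None of the 30 was called against CKD.

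Genes of lymphocytes and neutrophils were higher as well. All 16 tested T, NK and B cell genes rose (13 after rescaling, 5 after quantile normalization), with a median of 1.09. Their levels were low, and the 27 matched genes summed to 11.7 to 24.7 FPKM in control mice, 22.1 to 118 FPKM in CKD mice and 76.8 to 140 FPKM in CKD+Fe mice. Cd3e, of the T cell receptor complex, had a log2 fold change of 0.93 (adjusted p = 0.0137), which was 0.60 after rescaling (adjusted p = 0.0970). Cd79a, of the B cell receptor, reached at most 1.32 FPKM and was not tested. Jchain, the joining chain of secreted antibody, measured 2.80, 6.12, 3.69 and 3.31 FPKM in control mice and 68.8, 27.6, 28.9 and 34.1 FPKM in CKD+Fe mice (log2 fold change 2.97, adjusted p = 0.00810). Every CKD+Fe mouse was above every control mouse, and the CKD mice were scattered at 73.6, 33.2, 3.00 and 1.0 FPKM. Without control mouse 3 and CKD+Fe mouse 1 it was no longer called after rescaling (adjusted p = 0.0923). Of 14 matched neutrophil genes 7 were tested, and all 7 rose (6 after rescaling), where 54.4% and 27.7% of all genes rose. S100a9, a calcium-binding alarmin, went from 0.274 to 2.81 FPKM in control mice to 23.7 to 64.7 FPKM in CKD+Fe mice (log2 fold change 3.96, adjusted p = 1.11e-05). The definitive marker Ly6g stayed at or below 1.60 FPKM. The 14 genes summed to 2.40 to 8.27 FPKM in control mice. Members of this and the lymphocyte list that are low in control mice passed the filter mainly through CKD and CKD+Fe mice. The filter thus favored a rise among the genes tested, and these counts are a description.

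Antigen presentation, interferon and complement genes differed in how far they moved. Of 21 antigen presentation genes 20 rose (13 after rescaling), with a median of 1.30. Cd86, a costimulatory receptor, led with 1.95 (adjusted p = 1.03e-05), and Cd74, the invariant chain of MHC class II, had 1.31 as deposited (adjusted p = 0.00465) and 0.74 after rescaling (adjusted p = 0.0894). MHC genes share sequence, so single members are uncertain. Of 25 interferon-stimulated genes 15 rose with deposited values (60%, beside 54.4% of all genes) and 8 after rescaling (beside 27.7% of all genes). The list median was 0.81 against 0.50 for all genes, and Ddx58, the RNA sensor RIG-I, led with 1.82 (adjusted p = 9.06e-06). Isg15 (0.27), a ubiquitin-like interferon effector, was not called. In CKD against control mice 22 of these 25 rose (54.6% of all genes), with a median of 1.32. Of 19 complement genes 15 rose and 3 fell, under either scaling. C3, the central component, measured 2.77, 4.45, 4.14 and 3.73 FPKM in control mice and 335, 167, 170 and 217 FPKM in CKD+Fe mice, and CKD+Fe mouse 1 was the highest. On the log2 scale the difference was 5.50 (standard error 0.32, adjusted p = 1.13e-07). Cd55, a complement inhibitor of the cell surface, fell by 0.80 on the log2 scale (adjusted p = 0.00991).

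Matrix genes were higher throughout the list. Of 43 collagen and matrix genes 41 rose and 0 fell (38 and 0 after rescaling), with a median of 1.65 (1.23 after rescaling). Col1a1, the α1 chain of type I collagen, measured 5.86, 8.38, 8.15 and 13.3 FPKM in control mice and 80.5, 59.0, 29.6 and 35.3 FPKM in CKD+Fe mice. The lowest CKD+Fe mouse was above the highest control mouse, a log2 fold change of 2.33 (standard error 0.41, adjusted p = 0.000281). Col3a1, of type III collagen, ran from 8.07 to 14.2 FPKM and from 68.5 to 177 FPKM (log2 fold change 2.99, standard error 0.31, adjusted p = 5.86e-06). Fn1, fibronectin, measured 7.50, 7.0, 5.58 and 9.11 FPKM in control mice, 70.9, 109, 169 and 127 FPKM in CKD mice and 63.2, 71.3, 38.4 and 53.1 FPKM in CKD+Fe mice. CKD+Fe mice thus lay between the groups, with CKD+Fe mouse 2 just above the lowest CKD mouse. Fn1 was 2.77 higher than control on the log2 scale (standard error 0.25, adjusted p = 1.56e-06) and differed from CKD mice by -1.03 (95% interval -1.56 to -0.50, adjusted p = 0.348, and 0.0475 with array quality weights). Over the list 33 of 43 genes had a negative CKD+Fe minus CKD difference, with a median of -0.41, where 6586 of the 13148 genes were negative, and none of the 43 was called.

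Fibroblast activation genes and proteases followed. Of 34 myofibroblast and TGF-β genes 28 rose and 1 fell (19 and 1 after rescaling), with a median of 1.23. Ltbp2, a matrix protein related to the TGF-β binding proteins, went from 0.0822 to 0.303 FPKM in control mice to 7.0 to 14.6 FPKM in CKD+Fe mice (log2 fold change 3.14, adjusted p = 9.45e-07). Acta2, smooth muscle α-actin, ran from 23.6 to 51.8 FPKM and from 70.6 to 114 FPKM (log2 fold change 1.30, standard error 0.24, adjusted p = 0.000398), and after rescaling without control mouse 3 and CKD+Fe mouse 1 it was 0.69 (adjusted p = 0.0592). Tgfb1, transforming growth factor β1, measured 6.80, 7.26, 9.28 and 6.69 FPKM in control mice and 42.8, 15.9, 16 and 10.2 FPKM in CKD+Fe mice. CKD+Fe mouse 1 was far above the other mice, and the log2 fold change of 1.20 (adjusted p = 0.0116) was 0.68 after rescaling (adjusted p = 0.133). Bmp7, an antifibrotic growth factor of the nephron, had 12.3 ± 0.923 FPKM in control and 8.92 ± 1.78 FPKM in CKD+Fe mice (SD, n = 4 each) and fell by 0.44 on the log2 scale (adjusted p = 0.0319). That call was lost without control mouse 1 (-0.41, adjusted p = 0.0746), control mouse 2 (-0.41, 0.0744), control mouse 4 (-0.45, 0.0536), CKD+Fe mouse 2 (-0.37, 0.0897) or CKD+Fe mouse 4 (-0.37, 0.0952). Of 25 metalloproteinases and inhibitors 20 rose and 3 fell. Mmp7, matrilysin of injured epithelium, measured 0.176, 0.0790, 0.543 and 0.291 FPKM in control mice and 83.3, 24.3, 83.0 and 97.5 FPKM in CKD+Fe mice, with mouse 2 low (log2 fold change 5.68, standard error 0.40, adjusted p = 2.60e-07). Mmp12, the macrophage elastase (5.28, adjusted p = 3.63e-07), and Timp1, a metalloproteinase inhibitor (5.23, adjusted p = 2.03e-07), rose nearly as far. Mep1b, a meprin protease of the proximal tubule brush border, went from 108 to 143 FPKM to 14.0 to 31.7 FPKM (log2 fold change -2.63, adjusted p = 1.55e-05).

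Proliferation and stress lists had smaller medians than the injury list. Of 31 cell cycle genes 25 rose (80.65%) and 0 fell with deposited values, beside 54.4% and 11.0% of all genes, with a median of 1.02. After rescaling 18 rose and 2 fell (27.7% and 27.5% of all genes). After quantile normalization 5 of the 31 rose, where 2605 of all 13148 genes rose, so the list did not stand out under that scaling. Top2a, topoisomerase IIα of dividing cells, measured 1.45, 0.621, 1.01 and 1.70 FPKM in control mice and 3.02, 18.1, 3.48 and 4.62 FPKM in CKD+Fe mice, and Mki67, the Ki-67 antigen, 0.258, 0.248, 0.310 and 0.560 FPKM and 1.03, 4.17, 0.960 and 1.64 FPKM. CKD+Fe mouse 2 was high for both. Their log2 fold changes were 1.62 (adjusted p = 0.00313) and 1.02 (adjusted p = 0.00284), and both calls were lost with quantile normalization (0.84, adjusted p = 0.154, and 0.28, adjusted p = 0.432). Of 24 p53 and arrest genes 17 rose as deposited (70.8%, beside 54.4% of all genes). After rescaling 8 rose and 3 fell (27.7% and 27.5% of all genes). Cdkn1a, the arrest protein p21, ran from 2.35 to 12.6 FPKM, with control mouse 3 highest, and from 20.4 to 39.8 FPKM in CKD+Fe mice (log2 fold change 2.62, adjusted p = 7.65e-05). Of 14 immediate early and heat shock genes 12 rose (9 after rescaling), Socs3, the feedback inhibitor of cytokine signaling, by 3.20 (adjusted p = 2.56e-07).

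Transporters of the proximal tubule were lower in CKD+Fe than in control kidneys. Of 50 tested, 39 fell and 2 rose (41 and 1 after rescaling), where 11.0% and 27.5% of all genes fell, with a median log2 fold change of -1.04 (-1.60 after rescaling). Every CKD+Fe mouse was below every control mouse for 30 of the 50, beside 9.85% of all genes. Slc34a1, the sodium-phosphate cotransporter of the brush border, measured 1417, 1918, 1037 and 1797 FPKM in control mice and 237, 450, 455 and 334 FPKM in CKD+Fe mice. The highest CKD+Fe mouse was below the lowest control mouse, a log2 fold change of -2.07 (standard error 0.30, adjusted p = 6.29e-05). Slc22a6, the organic anion transporter OAT1, measured 281, 335, 230 and 339 FPKM in control mice and 27.9, 105, 76.0 and 53.1 FPKM in CKD+Fe mice (log2 fold change -2.30, standard error 0.35, adjusted p = 9.01e-05). CKD+Fe mouse 1 was lowest for both genes. Slc5a2, the glucose transporter SGLT2, fell by 1.55 on the log2 scale (adjusted p = 0.00173), and Lrp2, the endocytic receptor megalin, fell by 1.16 (adjusted p = 0.00613) with ranges that overlapped (56.8 to 129 FPKM and 22.2 to 61.1 FPKM). Slc22a12, the urate transporter URAT1, measured 824, 795, 753 and 857 FPKM in control mice, 83.0, 39.4, 130 and 49.2 FPKM in CKD mice and 131, 226, 184 and 176 FPKM in CKD+Fe mice. It was lower than control in CKD+Fe mice (log2 fold change -2.19, standard error 0.29, adjusted p = 3.64e-05), and the CKD+Fe minus CKD difference was 1.36 (95% interval 0.73 to 1.99, adjusted p = 0.254), a difference called with array quality weights (1.60, adjusted p = 0.00866).

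The 5 largest falls among genes called under the 3 scalings with no overlap of mice included 3 organic anion carriers of the proximal tubule. Slco1a1, an organic anion transporter, measured 94.4, 108, 73.2 and 178 FPKM in control mice and 0, 0.298, 0.0173 and 0.0275 FPKM in CKD+Fe mice. It was nearly absent from all 4 CKD+Fe mice (log2 fold change -6.65, standard error 0.22, adjusted p = 1.03e-09) and from the CKD mice, at 0.127 to 0.495 FPKM. Slc22a7, the organic anion transporter OAT2, measured 254, 188, 317 and 186 FPKM in control mice and 0.315, 12.9, 0.974 and 1.10 FPKM in CKD+Fe mice, with mouse 2 highest (log2 fold change -6.29, standard error 0.72, adjusted p = 1.09e-05). Slc22a28, a rodent member of the same family, fell by 4.57 (adjusted p = 1.10e-05), and reads of Slc22a paralogs can be shared. Pzp, a protease inhibitor of the α2-macroglobulin family, also among the 5, fell by 4.73 (adjusted p = 1.13e-07), from 23.2 to 48.2 FPKM to 0.0283 to 1.26 FPKM. Abcc4, the efflux pump MRP4, went the other way, from 4.42 to 6.51 FPKM to 19.5 to 28.3 FPKM (log2 fold change 1.92, adjusted p = 2.46e-06).

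Proximal tubule enzymes fell alongside the transporters. Of 51 tested, 40 fell and 3 rose (41 and 2 after rescaling, 39 and 6 without the divergent mice), with a median of -1.36 (-1.93 after rescaling), and the 53 matched genes took 15.3% of all FPKM in control mice and 2.25% in CKD+Fe mice on average. In control mice most of this share was Kap, the androgen-regulated kidney protein. Kap was at 1991, 9740, 2598 and 3420 FPKM in CKD+Fe mice, where CKD+Fe mouse 2 was highest (log2 fold change -4.32, standard error 0.62, adjusted p = 6.14e-05). Dnase1, a secreted DNase, measured 848, 896, 538 and 824 FPKM in control mice and 13.2, 39.8, 38.5 and 36.4 FPKM in CKD+Fe mice. The mice labelled control 3 and CKD+Fe 1 were each the lowest of their group (log2 fold change -4.65, standard error 0.36, adjusted p = 5.69e-07). Pck1, the rate-limiting enzyme of gluconeogenesis, was not called, at 578 to 992 FPKM in control mice and 200, 948, 663 and 612 FPKM in CKD+Fe mice (log2 fold change -0.51, adjusted p = 0.316). Arg2, mitochondrial arginase, rose from 4.06 to 8.57 FPKM to 29.9 to 54.6 FPKM (log2 fold change 2.61, adjusted p = 1.06e-06).

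**Figure D3:**
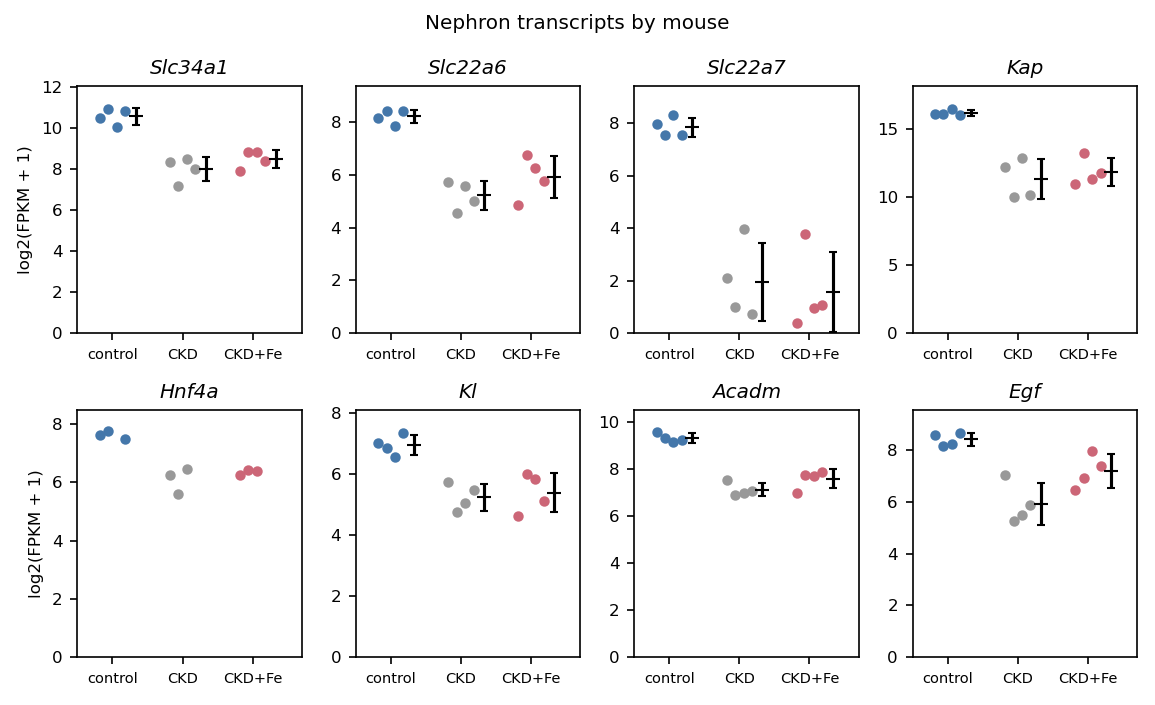
Points are log2(FPKM + 1) in each mouse (blue, control; gray, CKD; red, CKD+Fe; 4 mice each) with the mean and SD in black, for 8 nephron genes. All CKD+Fe mice lie below all control mice in each panel, and Egf has the CKD+Fe mice nearest to control. Hnf4a has a failed value in 1 mouse of each group, so 3 points and no mean are drawn.

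Genes of fatty acid oxidation and peroxisomes, the main fuel pathway of the proximal tubule, had a median closer to 0 than the transporters. Of 53 tested, 33 fell and 4 rose (44 and 3 after rescaling), with a median of -0.62 (-1.19 after rescaling) beside -1.09 in CKD against control mice. Acadm, medium-chain acyl-CoA dehydrogenase, measured 768, 636, 566 and 592 FPKM in control mice and 126, 216, 208 and 232 FPKM in CKD+Fe mice (log2 fold change -1.73, standard error 0.20, adjusted p = 1.21e-05). CKD+Fe mouse 1 was the lowest. Acsm3, a medium-chain acyl-CoA synthetase, fell by 4.11 on the log2 scale (standard error 0.75, adjusted p = 0.000381), with CKD+Fe mice spread from 6.79 to 115 FPKM. Ppargc1a, the mitochondrial coactivator PGC-1α, was 6.94 to 11.7 FPKM in control mice and 8.72 to 22.5 FPKM in CKD+Fe mice, and its log2 fold change of 0.71 (adjusted p = 0.0407) was 0.19 after rescaling (adjusted p = 0.593). It was not called without control mouse 1 (adjusted p = 0.0751), 2 (0.105) or 3 (0.0731), CKD mouse 2 (0.0512) or CKD+Fe mouse 3 (0.134) or 4 (0.109), at log2 fold changes of 0.51 to 0.71. Cyp4a14, a fatty acid ω-hydroxylase, rose from 15.4, 31.4, 4.54 and 5.60 FPKM in control mice to 150, 90.7, 385 and 358 FPKM in CKD+Fe mice (log2 fold change 4.15, standard error 0.69, adjusted p = 0.000193). Its reads can be shared with other Cyp4a genes.

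Mitochondrial respiratory chain genes were mostly lower, with log2 fold changes from -1.04 to 1.38. Of 80 tested, 60 fell and 2 rose as deposited, 77 fell and 1 rose after rescaling and 38 fell after quantile normalization, with a median of -0.62 (-1.19 after rescaling). Without control mouse 3 and CKD+Fe mouse 1, 42 fell. Ndufv3, a subunit of complex I, ran from 423 to 819 FPKM and from 221 to 309 FPKM (log2 fold change -1.04, adjusted p = 0.000893), whereas Cox6b2, a testis-type subunit of complex IV, rose from 15.5 to 23.7 FPKM to 48.7 to 60.1 FPKM (log2 fold change 1.38, adjusted p = 6.38e-06). Of 25 glycolysis genes 12 rose and 5 fell (48% and 20%, beside 54.4% and 11.0% of all genes). After rescaling 10 rose and 8 fell (27.7% and 27.5% of all genes). Hk2, the inducible hexokinase, rose from 0.102 to 0.754 FPKM to 7.31 to 9.81 FPKM (log2 fold change 2.72, adjusted p = 8.76e-07), and Gapdh, of the lower pathway, fell by 0.65 (adjusted p = 0.00823). Of 25 cholesterol genes 10 rose and 3 fell (5 without control mouse 3) as deposited, 40% and 12% beside 54.4% and 11.0% of all genes. After rescaling 3 rose and 9 fell (27.7% and 27.5% of all genes), so the list's direction depended on the scaling. Cyp51, lanosterol demethylase of cholesterol synthesis, fell by 1.54 (adjusted p = 0.000146).

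Segments beyond the proximal tubule showed no common direction. In the thick ascending limb 4 of 17 genes rose and 3 fell (23.53% and 17.65%, beside 54.4% and 11.0% of all genes). After rescaling 2 rose and 4 fell (27.7% and 27.5% of all genes). As deposited, 8 rose without control mouse 3, 7 without CKD+Fe mouse 1 and 8 without both. Umod, uromodulin, the marker of this segment, was at 1707, 1159, 1853 and 1432 FPKM in control mice and at 1545, 2300, 2033 and 2085 FPKM in CKD+Fe mice, which overlapped (log2 fold change 0.38, adjusted p = 0.103), and it was called without control mouse 3 (0.48, adjusted p = 0.0469) or without CKD+Fe mouse 1 (0.50, adjusted p = 0.0452), and with array quality weights (0.48, adjusted p = 0.0106). Egf, epidermal growth factor, measured 376, 284, 298 and 400 FPKM in control mice, 130, 36.8, 43.9 and 58.1 FPKM in CKD mice and 86.1, 118, 248 and 167 FPKM in CKD+Fe mice. The highest CKD+Fe mouse was close under the lowest control mouse (log2 fold change -1.22, standard error 0.36, adjusted p = 0.00926), and quantile normalization gave -0.97 (adjusted p = 0.0817). In the distal tubule 15 of 25 rose (60.0%, beside 54.4% of all genes) and 4 fell as deposited, and 3 rose and 6 fell after rescaling (27.7% and 27.5% of all genes). Slc12a3, the thiazide-sensitive NaCl cotransporter, had a log2 fold change of 1.09 as deposited (adjusted p = 0.00971) and 0.53 after rescaling (adjusted p = 0.208). Trpv5, the calcium channel, had 1.38 (adjusted p = 0.00242) with ranges that met, and Calb1, calbindin, had 0.07 (adjusted p = 0.887). Pvalb, parvalbumin of the early distal tubule, measured 64.6, 61.0, 68.3 and 54.1 FPKM in control mice and 2.83, 12, 16.8 and 20.9 FPKM in CKD+Fe mice (log2 fold change -2.41, adjusted p = 0.000377).

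In the collecting duct 5 of 27 rose and 2 fell as deposited (18.52% and 7.407%, beside 54.4% and 11.0% of all genes). After rescaling 3 rose and 11 fell (27.7% and 27.5% of all genes). As deposited, 9 rose and 2 fell without the divergent mice, and 1 fell without control mouse 2, control mouse 4 or CKD+Fe mouse 1. Aqp2, the vasopressin-regulated water channel, was at 230, 285, 964 and 153 FPKM in control mice and at 124, 243, 206 and 214 FPKM in CKD+Fe mice, and control mouse 3 was the highest (log2 fold change -0.71, adjusted p = 0.224). It was called lower after rescaling (-1.28, adjusted p = 0.0484), and was -0.17 without control mouse 3 (adjusted p = 0.708). Foxi1, the intercalated cell factor, had 0.36 (adjusted p = 0.110, 0.0475 without CKD mouse 3 and 0.0251 with array quality weights), Atp6v0d2, a proton pump subunit of intercalated cells, rose by 1.58 (adjusted p = 1.97e-05), and Car4, a membrane carbonic anhydrase, fell by 2.54 (adjusted p = 1.48e-06), from 169 to 182 FPKM to 19.1 to 39.3 FPKM. Against CKD mice, 26 of the 27 genes were higher in CKD+Fe mice, with a median difference of 0.51, and none was called. Among 25 nephron transcription factors 7 rose and 7 fell (28% and 28%, beside 54.4% and 11.0% of all genes). After rescaling 4 rose and 12 fell (27.7% and 27.5% of all genes). Hnf4a, which the HNF4 motif is named for, had 197, 214 and 181 FPKM in control mice 1, 2 and 4 and 76.0, 85.8 and 83.6 FPKM in CKD+Fe mice 1 to 3, with the failed values of control mouse 3 and CKD+Fe mouse 4 missing from the fit. It fell by 1.26 on the log2 scale (standard error 0.21, adjusted p = 0.000392). Tfcp2l1, a factor of distal and collecting duct cells, rose by 1.34 (adjusted p = 0.000448).

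Podocyte and endothelial lists are given as the glomerular and vascular compartments. Of 16 podocyte genes 12 rose (75%) and 0 fell, beside 54.4% and 11.0% of all genes, with a median of 0.98. After rescaling 6 rose and 0 fell (27.7% and 27.5% of all genes). Kirrel, which encodes the slit diaphragm protein NEPH1, rose by 1.63 (adjusted p = 5.13e-05). Nphs1, nephrin, was at 4.50 to 9.39 FPKM in control mice and at 31.1, 9.37, 16.9 and 5.34 FPKM in CKD+Fe mice, and its log2 fold change of 0.91 (adjusted p = 0.0464) was 0.41 after rescaling (adjusted p = 0.360). It was not called without control mouse 1 (adjusted p = 0.121), 2 (0.0745) or 4 (0.0852), any CKD mouse (0.0539 to 0.0558) or CKD+Fe mouse 1 (0.154) or 3 (0.113), at log2 fold changes of 0.51 to 0.93. Of 18 endothelial genes 4 rose (22.2%) and 0 fell as deposited, beside 54.4% and 11.0% of all genes. After rescaling 1 rose and 9 fell (27.7% and 27.5% of all genes). As deposited, 1 rose without control mouse 1, control mouse 4 or CKD+Fe mouse 1, and 2 without control mouse 2. Ecscr, an endothelial surface protein, rose by 1.16 (adjusted p = 0.000265), and Pecam1, the adhesion molecule CD31, was 0.04 as deposited (adjusted p = 0.842) and -0.50 after rescaling (adjusted p = 0.0317).

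Iron and heme genes of the kidney moved in both directions. Of 46 tested, 21 rose and 9 fell (45.7% and 19.6%, beside 54.4% and 11.0% of all genes), with a median of 0.39 against 0.50 for all genes. As deposited, 5 fell without control mouse 1, control mouse 2 or CKD+Fe mouse 4. After rescaling 15 rose and 14 fell (27.7% and 27.5% of all genes). The rises included carriers and exporters. Slc40a1, ferroportin, the cellular iron exporter, measured 11.7, 12.4, 8.30 and 21.5 FPKM in control mice, 38.3, 38.6, 25.8 and 44.8 FPKM in CKD mice and 62.9, 33.9, 62.3 and 57.3 FPKM in CKD+Fe mice. CKD+Fe mouse 2 was the lowest of its group, above all control mice (log2 fold change 1.96, standard error 0.27, adjusted p = 3.88e-05). Hp, haptoglobin, which binds free hemoglobin, went from 0.193 to 1.17 FPKM to 12.6 to 31.1 FPKM (log2 fold change 3.72, adjusted p = 1.26e-06), and Trf (2.89), transferrin, Cp (3.54), the ferroxidase ceruloplasmin, and Slc11a1 (3.22), the phagosomal metal transporter, rose too. Fth1, ferritin heavy chain, had 7183, 7027, 7372 and 5787 FPKM in control mice and 4367, 4086, 3090 and 3515 FPKM in CKD+Fe mice. It was lower in all 4 CKD+Fe mice as deposited (log2 fold change -0.87, standard error 0.21, adjusted p = 0.00291), and quantile normalization gave -0.18 (adjusted p = 0.483). Ftl1, ferritin light chain, was at 2967, 2961, 3770 and 2554 FPKM in control mice, at 1646, 2135, 3086 and 1626 FPKM in CKD mice and at 5588, 2816, 4088 and 3172 FPKM in CKD+Fe mice. It was not called against control (log2 fold change 0.32, adjusted p = 0.304, and 0.69 with quantile normalization, adjusted p = 0.0199), and the CKD+Fe minus CKD difference was 0.88 (95% interval 0.31 to 1.45, adjusted p = 0.479, and 0.0326 with array quality weights). Ferritin genes have many processed pseudogenes, so reads can be shared.

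Other members of the iron list lay nearer to control. Tfrc, transferrin receptor 1, was at 28.5, 30.1, 29.8 and 26.9 FPKM in control mice and at 14.7, 23.9, 20.5 and 16.4 FPKM in CKD+Fe mice, and every CKD+Fe mouse was below every control mouse. The log2 difference came to -0.61 (standard error 0.23, adjusted p = 0.0331), which without control mouse 3 and CKD+Fe mouse 1 was -0.49 (adjusted p = 0.135). The call was also lost without control mouse 1, 2 or 3 or CKD+Fe mouse 1 or 4, with log2 fold changes of -0.61, -0.59, -0.59, -0.50 and -0.55 and adjusted p of 0.0593, 0.0688, 0.0582, 0.0944 and 0.0804. Hmox1, heme oxygenase 1, was split among control mice, at 75.4, 70.4, 22.8 and 31.7 FPKM, and lay between at 41.1 to 53.1 FPKM in CKD+Fe mice (log2 fold change 0.08, adjusted p = 0.846). Bmp6, a ligand that reports body iron, had 12.8 ± 4.43 FPKM in control and 12.8 ± 3.64 FPKM in CKD+Fe mice (SD, n = 4 each). After rescaling without the divergent mice both were called lower, Hmox1 at -0.84 (adjusted p = 0.0423) and Bmp6 at -0.92 (adjusted p = 0.00202). Hamp, hepcidin, was detected in some mice of either group, at 0, 0, 1.34 and 0 FPKM in control mice and 0, 0.558, 0.931 and 1.73 FPKM in CKD+Fe mice, and was not tested.

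Antioxidant genes were found in both directions. Of 54 tested, 18 rose and 17 fell with deposited values (33.3% and 31.5%, beside 54.4% and 11.0% of all genes). After rescaling 12 rose and 29 fell (27.7% and 27.5% of all genes). The median was 0.03 beside -0.35 in CKD against control mice, and -0.54 beside -0.90 after rescaling. Sod1, cytosolic superoxide dismutase, ran from 1100 to 1716 FPKM in control mice and from 466 to 667 FPKM in CKD+Fe mice (log2 fold change -1.28, standard error 0.21, adjusted p = 0.000141). Sod3, the secreted form, fell by 1.86 (adjusted p = 4.62e-05), and Cat, catalase of peroxisomes, fell by 1.02. Metallothionein Mt1, a metal-binding protein, rose from 121 to 214 FPKM to 587 to 799 FPKM (log2 fold change 2.03, adjusted p = 7.66e-06). Gsta1, a glutathione transferase, measured 0.648, 0.675, 0.240 and 0.329 FPKM in control mice and 20.7, 2.89, 56.2 and 48.0 FPKM in CKD+Fe mice (log2 fold change 3.92, standard error 0.71, adjusted p = 0.000352). CKD+Fe mouse 2 was the lowest and the spread was wide. Gsta2 had 195, 218, 206 and 179 FPKM in control mice, 178, 124, 122 and 166 FPKM in CKD mice and 239, 276, 398 and 334 FPKM in CKD+Fe mice, above both other groups. Its CKD+Fe minus CKD difference was 1.07 (95% interval 0.69 to 1.45, adjusted p = 0.104, and 1.19 with adjusted p = 0.0281 without CKD+Fe mouse 1). Its log2 fold change against control was 0.62 (adjusted p = 0.00723), which was 0.05 after rescaling (adjusted p = 0.824), and reads of Gsta and Gstm paralogs can be shared.

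Endocrine genes of the kidney were altered in both directions. Of 23 tested, 7 rose and 5 fell (30.4% and 21.7%, beside 54.4% and 11.0% of all genes). After rescaling 2 rose and 9 fell (27.7% and 27.5% of all genes). Kl, the FGF23 coreceptor klotho, measured 130, 116, 94.4 and 164 FPKM in control mice and 23.6, 64.0, 55.9 and 33.9 FPKM in CKD+Fe mice (log2 fold change -1.56, standard error 0.30, adjusted p = 0.000489). Cyp24a1, the vitamin D 24-hydroxylase, was at 13.5, 14.9, 10.5 and 34.5 FPKM in control mice and at 33.3, 97.5, 39.7 and 210 FPKM in CKD+Fe mice, which overlapped by control mouse 4 and CKD+Fe mouse 1 (log2 fold change 2.07, adjusted p = 0.00766). Cyp27b1, the 1α-hydroxylase that makes active vitamin D, had 2.04. Ace, angiotensin-converting enzyme, fell by 2.47 (adjusted p = 4.17e-05), from 38.0 to 70.1 FPKM to 6.88 to 15.3 FPKM. Ren1, renin, was variable in both groups, at 32.5 to 88.7 FPKM and 21.4 to 71.9 FPKM (log2 fold change -0.35, adjusted p = 0.481), but it was called lower with array quality weights (-0.85, adjusted p = 0.0303) and after rescaling without the divergent mice (-1.39, adjusted p = 0.0261). Epo, erythropoietin, was listed at 0 in all 4 CKD+Fe mice and reached 0.0741 FPKM in control mice.

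General cell machinery served as a reading of the scaling. Of 78 cytosolic ribosomal protein genes 44 rose as deposited, 28 without control mouse 4, 1 after rescaling and 74 after quantile normalization, and their median of 0.50 was that of all genes. Rpl12 had the largest change of these, 1.10 as deposited (adjusted p = 0.000957) and 0.53 after rescaling (adjusted p = 0.0580), and ribosomal protein genes have pseudogenes that can share reads. Of 37 proteasome genes 5 rose and 5 fell (13.51% and 13.51%, beside 54.4% and 11.0% of all genes). After rescaling 1 rose and 29 fell (27.7% and 27.5% of all genes). As deposited, with 1 mouse left out, as few as 2 rose (without CKD+Fe mouse 1) and 2 fell (without control mouse 1 or CKD+Fe mouse 2, 3 or 4). Psmb8, of the immunoproteasome, rose by 1.40 (adjusted p = 0.000219), and Psmb7, a subunit of the constitutive proteasome, fell by 0.60 (adjusted p = 0.000573). Of 19 unfolded protein and integrated stress genes 2 rose and 1 fell (10.53% and 5.263%, beside 54.4% and 11.0% of all genes). After rescaling 1 rose and 9 fell (27.7% and 27.5% of all genes), and 4 rose and 4 fell as deposited without the divergent mice. Atf3, a stress transcription factor, was at 2.72 (adjusted p = 2.40e-05). Of 27 lysosome genes 16 rose (59.3%, beside 54.4% of all genes) and 1 fell, or 3 without the divergent mice, and 9 rose and 5 fell after rescaling (27.7% and 27.5% of all genes). Ctss, cathepsin S of antigen-presenting cells, rose from 17.8 to 32.2 FPKM to 272 to 605 FPKM (log2 fold change 4.05, adjusted p = 1.89e-07), and Glb1, lysosomal β-galactosidase, fell by 1.04 (adjusted p = 5.43e-05). Of 18 circadian clock genes 7 rose (38.9%, below the share of all genes), 3 without CKD+Fe mouse 4 and 4 without CKD+Fe mouse 1 or both divergent mice (2 rose and 2 fell after rescaling). Among them was Per1, a clock repressor, which rose by 2.44 (adjusted p = 2.08e-05).

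Markers of tissue that can come with a kidney piece were checked beside these programs. The 15 papilla and urothelium genes summed to 213 to 1055 FPKM in control mice, the highest in control mouse 3, and to 619 to 682 FPKM in CKD+Fe mice, and 2 rose and 1 fell (5 and 1 without the divergent mice). S100a6, a calcium-binding protein of ducts and stroma, had 24.6, 50.8, 144 and 23.1 FPKM in control mice and 280 to 414 FPKM in CKD+Fe mice (log2 fold change 2.84, adjusted p = 9.65e-05). The 11 matched erythroid genes summed to 16.1 to 105 FPKM in control mice and 7.98 to 48.1 FPKM in CKD+Fe mice, so blood transcripts were low in both, and of 6 tested 1 rose and 1 fell, none without the divergent mice. None of the 14 matched fat, adrenal and muscle genes passed the filter, and their sum was 0.531 to 5.65 FPKM in control and 1.71 to 39.9 FPKM in CKD+Fe mice. The upper value was that of CKD+Fe mouse 4, with 11.3 FPKM of Adipoq and 19.5 FPKM of Retn, hormones of fat cells. Among the adrenal markers Cyp11b1 was at or below 0.0399 FPKM in all mice. Star, which moves cholesterol into mitochondria, was at 0.0900 to 0.148 FPKM in control mice and 0.408 to 0.947 FPKM in CKD+Fe mice, and the steroid hydroxylase Cyp21a1 at 0 to 0.0178 FPKM and 0.0473 to 0.451 FPKM, higher in every CKD+Fe mouse. The part of these tissues in the results above was not tested.

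The genes of the disease that came nearest to control under iron were listed as a description. They were taken from 766 genes called in CKD against control under the 3 scalings with at least a 4-fold difference. The order was by the size of the CKD+Fe against control value, so no test was made. In CKD mice 603 of the 766 were higher than control and 163 lower. In CKD+Fe against control 764 were called in the same direction, where 54.4% of all genes were called higher and 11.0% lower, and 0 lay within 2-fold of control. The 766 genes were picked against the same control mice in the same fit, which favors calls in the same direction, so this count is a description. None of the 766 was called in CKD+Fe against CKD mice. The CKD+Fe against control and CKD against control log2 fold changes, which share the control mice, were 1.03 and 2.31 for Zbtb16, a transcription factor, -1.05 and -2.21 for Slc22a8, the organic anion transporter OAT3, and 1.12 and 2.2 for Sult4a1, a brain-type sulfotransferase. They were -1.15 and -2.11 for Clec2h, a C-type lectin, -1.22 and -2.49 for Egf, and 1.23 and 2.05 for 2810417H13Rik. The fatty acid genes Acox2, a peroxisomal oxidase (-1.23 and -2.05), Ehhadh, the peroxisomal bifunctional enzyme (-1.26 and -2.44), and Acsm5, an acyl-CoA synthetase (-1.29 and -2.04), and the cilium factor Foxj1 (1.29 and 2.07) made up the rest. The nearest, Zbtb16, was not called against control after rescaling (0.83, adjusted p = 0.0827), with quantile normalization (0.28, adjusted p = 0.606), without any 1 control mouse (adjusted p from 0.0532 to 0.0695) or without CKD+Fe mouse 1 (adjusted p = 0.0573) or 4 (0.59, adjusted p = 0.105). Clec2h was not called with deposited values and was called after rescaling (-1.68, adjusted p = 0.0115). Slc22a8 measured 153, 212, 180 and 167 FPKM in control mice, 43.0, 24.0, 45.7 and 41.0 FPKM in CKD mice and 46.8, 124, 103 and 85.9 FPKM in CKD+Fe mice, where each CKD+Fe mouse was between the other groups.

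The number of genes that differed from CKD mice without iron depended on the fit. Of 13148 genes 1 was called in CKD+Fe against CKD (0.00761%), and without adjustment 431 genes were higher and 359 lower at p under 0.05. With no difference between the groups, that cutoff would still be expected to pass a share of about 0.05 of the 13148 genes. These unadjusted counts are therefore not read as effects of iron. The median half-width of the 95% interval of a difference was 0.38 on the log2 scale. With array quality weights 135 genes were called (79 higher and 56 lower), without the divergent mice 19, and without CKD+Fe mouse 1 alone 13. CKD mouse 3 stayed in these fits. No gene was called with a pseudocount of 0.1 or with no filter on low values. The same held without control mouse 1, 2 or 4, CKD mouse 2 or 3, or CKD+Fe mouse 3 or 4. The gene called with all mice weighted equally was Fabp1, liver fatty acid-binding protein, which measured 1.24, 1.35, 2.97 and 1.84 FPKM in control mice, 3.41, 2.44, 0.891 and 5.65 FPKM in CKD mice and 28.5, 16.4, 73.5 and 46.1 FPKM in CKD+Fe mice. All 4 CKD+Fe mice were above the other 8, and the ranges of CKD and control mice overlapped. The gene (ENSMUSG00000054422) lies on chromosome 6 from 71199827 to 71205023 in GRCm38. Its CKD+Fe minus CKD difference was 3.30 (95% interval 2.39 to 4.21, adjusted p = 0.0284), and against control it was 3.72 (standard error 0.42, adjusted p = 1.03e-05). The call against CKD was lost, at differences of 2.96 to 3.74, without control mouse 1 (adjusted p = 0.0585), 2 (0.0659) or 4 (0.0619), CKD mouse 2 (0.0940) or 3 (0.0572), or CKD+Fe mouse 3 (0.0812) or 4 (0.0904), and with a pseudocount of 0.1 (0.0731) or no filter on low values (0.0925). The CKD+Fe minus CKD differences of Cyp4a14 (2.09, 95% interval 0.59 to 3.58), Gsta1 (2.0, 0.48 to 3.53) and Jchain (1.67, -0.18 to 3.52) were also among the largest of list members, none of them called.

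**Figure D4:**
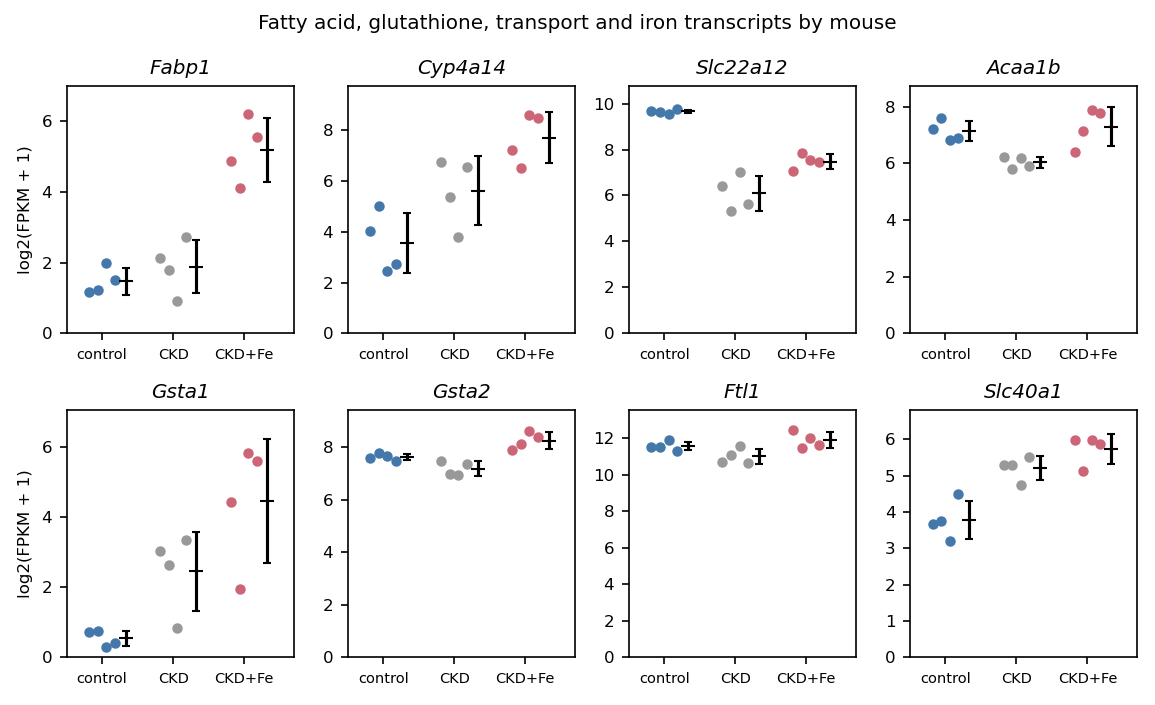
Points are log2(FPKM + 1) in each mouse (blue, control; gray, CKD; red, CKD+Fe; 4 mice each) with the mean and SD in black. Fabp1 and Gsta2 in CKD+Fe mice lie above all mice of the other groups, Slc22a12 lies between them, Acaa1b, a peroxisomal thiolase, overlaps with control, and Ftl1 overlaps with control and CKD.

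By program, the median CKD+Fe minus CKD differences with deposited values started near 0. In the collecting duct (0.51 beside -0.06) and the antioxidant list (0.26 beside 0.03) they were larger than the difference from control. After rescaling they were smaller than the difference from control in both lists. The rescaled medians were 0.51 beside -0.57 in the collecting duct and 0.26 beside -0.54 in the antioxidant list. Of 53 fatty acid oxidation genes 52 were higher in CKD+Fe than in CKD mice, with a median of 0.38, beside a median of -0.62 against control, and 78 of 80 respiratory chain genes were higher, with a median of 0.21. Proximal tubule transporters were higher in 46 of 50, with a median of 0.31. Tubule injury genes were lower in 24 of 26, with a median of -0.47, and interferon-stimulated genes in 24 of 25, with a median of -0.47 beside 0.81 against control. Macrophage genes were lower in 18 and higher in 12 of 30, with a median of -0.05. The T, NK and B cell list lay further from control under iron. All 16 of its tested genes had a positive difference, with a median of 0.26. Its median against control was 1.09 for CKD+Fe mice and 0.79 for CKD mice. Over all genes 6562 were higher and 6586 lower. Genes of a list share cells and mice, so these counts describe the 8 mice and are not tests.

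The mice of the CKD+Fe group were not alike in the depth of the proximal tubule loss. The mean log2(FPKM + 1) of the transport list was 6.72, 6.78, 6.34 and 6.88 in control mice, 5.25, 4.55, 5.01 and 4.95 in CKD mice and 4.65, 5.72, 5.53 and 5.29 in CKD+Fe mice. CKD+Fe mouse 1 lay within the CKD range, and CKD+Fe mice 2 to 4 lay between CKD and control. For fatty acid oxidation the levels were 5.47, 6.08, 6.13 and 6.17 in CKD+Fe mice and 5.70, 5.15, 5.41 and 5.44 in CKD mice, with the same mouse apart. The macrophage level was 5.69, 4.94, 5.34 and 5.09 in CKD+Fe mice and 2.12, 2.2, 2.79 and 2.5 in control mice, and CKD+Fe mouse 1 had the highest. The collagen and matrix level was 4.65, 4.67, 4.18 and 4.41 in CKD+Fe mice and 4.62, 4.71, 5.11 and 4.73 in CKD mice, where CKD+Fe mice 3 and 4 were below every CKD mouse.

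**Figure D5:**
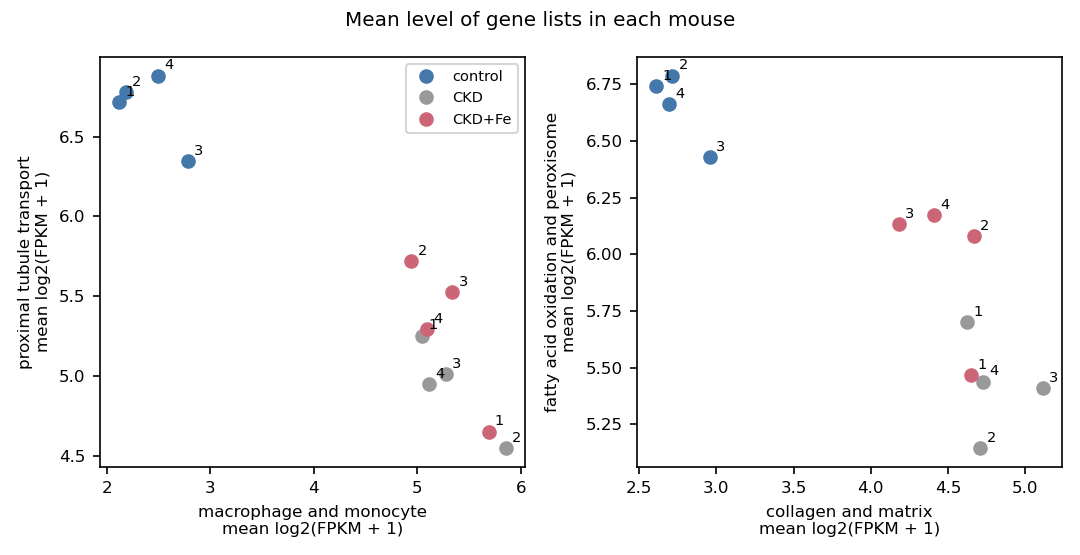
Each point is a mouse, numbered by replicate (blue, control; gray, CKD; red, CKD+Fe), placed by the mean log2(FPKM + 1) of 2 gene lists. On the left, macrophage against proximal tubule transport, CKD+Fe mouse 1 sits at 5.69 and 4.65 among the CKD mice; on the right, collagen and matrix against fatty acid oxidation, the other CKD+Fe mice sit between the groups at 6.08 to 6.17.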

How the data were processed

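Whole kidney RNA from 4 control, 4 CKD and 4 CKD+Fe mice was sequenced as stranded mRNA with single-end reads. Per the submitters' notes, the authors used bcl2fastq 2.19, STAR 2.5.2, Cufflinks 2.1.1 and GRCm38. The deposited table holds FPKM, made by the authors for protein-coding genes in each mouse, and FPKM keeps no counts, so the count-based test named in the study's methods was not used and counting error is unknown. Of 22053 rows, 17 held a total of 30 failed values, which were treated as missing, and the annotation release is not given in the sources used here. Symbols with several rows were assigned to the row that overlaps the annotated gene most. The 13148 genes that reached 1 FPKM in 4 or more mice were tested by limma 3.58.1 (R 4.3.3) after a log2(FPKM + 1) transformation, with a variance trend, all 12 mice in 1 fit and Benjamini-Hochberg adjustment. Tests were two-sided, intervals were 95% limma intervals, and the steps were tested on simulated data. Values were also rescaled by the median of ratios and normalized by quantiles. Further alternatives were a pseudocount of 0.1, other filters and thresholds, array quality weights, no variance trend, only 8 mice, and each mouse left out. Starts of genes were converted to 1-based positions.

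The comparison, the gene lists and the motifs were chosen with earlier results of these data known. Genes named were the landmarks of each list, the 5 largest rises and 5 largest falls over all genes, the largest called rise and fall in each list, the 10 genes nearest to control among those 4-fold changed in CKD, and the 5 largest CKD+Fe minus CKD differences in lists. Genes added after their values were seen were other members of the lists, named as examples, and those whose promoters are printed. A few genes and a motif among these are not reported here.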

Additional observations from a re-analysis of the deposited data

Results flagged for a closer look

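In 18 of 300 groups of 4 values examined, the most distant mouse was separated from the other 3 by more than Dixon's 95% critical value. Chance flags about 1 in 20 groups. Most of these values belonged to the mice that stood apart in the whole profile.

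Control mouse 3 had high mean levels, as log2(FPKM + 1), of the p53 and arrest list (3.64, with the others at 3.06 to 3.09), the glycolysis list (5.02, others 4.71 to 4.74), the collecting duct list (4.94, others 4.40 to 4.48) and the endothelium list (4.36, others 3.53 to 3.61). In the same mouse Ace was low at 5.29, Dnase1 at 9.07 and Ehhadh at 7.46 on this scale.

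CKD+Fe mouse 1 had a low mean level of fatty acid oxidation and peroxisome genes (5.47, others 6.08 to 6.17) and a high one of lysosome genes (7.43, others 6.97 to 7.03). Its Dnase1 was low at 3.83 (others 5.22 to 5.35) and its Ccl8 at 5.98 (others 6.20 to 6.25).

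CKD+Fe mouse 2 had a low mean level of circadian clock genes (3.42, others 3.63 to 3.67). It was low in Ccl2 at 4.27, Mmp7 at 4.66 and Slc40a1 at 5.13, and high in 2810417H13Rik at 2.64, Glb1 at 6.04 and Slco1a1 at 0.38. For Mmp7 the other 3 mice lay between 6.39 and 6.62, and for 2810417H13Rik between 1.37 and 1.46.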

How the results depend on the processing

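The share of genes called in each direction depended on the scaling. The 7159 genes higher in CKD+Fe than in control mice became 3636 after median-of-ratios rescaling, 2605 after quantile normalization, 4749 with a filter at a mean of 5 FPKM, 2891 with at least 2-fold, and 3477 after rescaling without control mouse 3 and CKD+Fe mouse 1, the last chosen after seeing the data. The 1442 lower genes became 3618, 2967, 2388 at an adjusted p under 0.5 (a cutoff stated in the study's methods), 497 with at least 2-fold, and 3544 after rescaling without those mice. Respiratory chain genes lower numbered 38 with quantile normalization. Signs turned, with a call, for Pecam1 (-0.50 after rescaling), Hmox1 (-0.84) and Bmp6 (-0.92) after rescaling without the divergent mice, and, without one, for Epb42 (-0.0202 with quantile normalization). Total RNA was not measured, so the cause of the shift was not tested.

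With each mouse left out in turn, 6570 to 7512 genes were higher and 1238 to 1542 lower. Members higher ran from 23 to 24 (tubule injury), 29 to 30 (macrophage), 26 to 27 (cytokines) and 40 to 41 (matrix), and members lower from 33 to 40 (proximal tubule transport), 38 to 40 (proximal tubule metabolism), 30 to 34 (fatty acid oxidation) and 46 to 65 (respiratory chain). Of the 105 named genes called against control, 79 were called in the same direction under every alternative run. No paired analysis was possible because the replicate numbers only name the mice and pair none of them.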
